A study of Mus musculus with 14 samples.

Results

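Genes for the protein components of the cytosolic ribosome were examined in the list of regions enriched for histone H3 acetylated at lysine 27 (H3K27ac) in mouse retina at embryonic day 14 (E14). Members were the protein-coding genes of GENCODE vM1 (build mm9, chromosomes 1 to 19) whose symbol starts with Rpl or Rps and a digit, together with Rpsa, Rplp0, Rplp1 and Rplp2, without pseudogene symbols and without the S6 kinase genes. This gave 81 of 21418 protein-coding genes, of which 72 encode core ribosomal proteins (42 of the large and 30 of the small subunit). The other 9 are 8 paralogs of core members (Rpl3l, Rpl7l1, Rpl10l, Rpl22l1, Rpl36al, Rpl39l, Rps27l and Rps4y2, which RefSeq lists as Rps4l and as a transcribed pseudogene) and Rps19bp1, whose product binds Rps19 and is not a ribosomal protein. The symbols leave out Fau, which encodes a small-subunit protein fused to a ubiquitin-like protein.

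The study profiled retinal progenitor cells (RPCs) early and late in retinal development by ATAC-Seq, RNA-Seq and ChIP-Seq, with loss of the LIM homeodomain factor LHX2 as the main perturbation. The series holds 14 samples, 6 for ATAC-Seq, 6 for RNA-Seq and 2 for H3K27ac ChIP-Seq, and the E14 H3K27ac sample is the source of every value given here. Its labels give the strain CD1 and retinal progenitor cells, and its title names no genotype, whereas the methods describe whole dissected retinas as the material for chromatin immunoprecipitation. The labels list 2 replicate libraries and 1 isotype control, and peaks were called on a single ChIP alignment of this stage, taken here as the replicates pooled, so there is a single value per peak, no error between replicates and no test. The pooled ChIP alignment kept 113543038 tags and the control 9210563. All 10 retinal progenitor genes on a marker list had a promoter peak, and none of 9 genes of liver, pancreas, muscle, blood, skin and lung had one.

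Every ribosome needs its proteins in near-equal numbers, and dividing cells devote much of their transcription and translation to making them. Most of these genes are short, are expressed in all cell types, and start transcription within a run of pyrimidines, the 5′ terminal oligopyrimidine (TOP) tract, which places their mRNAs under the control of growth signals through mTOR. H3K27ac is laid down on nucleosomes beside active promoters and enhancers, and at promoters it usually lies mainly on the nucleosomes downstream of the start site.

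The promoter sequences of 7 members are shown, as they mark extremes of the measurements or genes whose annotated start decided whether a peak was counted. Rpl15 is added, chosen after its values were seen, as an example of a RefSeq start downstream of the GENCODE start within the same peak. They run from 100 bases before to 25 bases from the start site on the gene's strand in mm9, with runs of 8 or more C or T in capitals, and Rps10, Rpl13a and Rpl15 are given at both the GENCODE gene start and the RefSeq start, and Rps2 at its RefSeq start. Rpl5 had the highest pileup, Rps29 the highest fold enrichment and Rps4y2 the lowest pileup and the shortest peak.
Rpl5, GENCODE start, chr5:108329421-108329545, plus strand: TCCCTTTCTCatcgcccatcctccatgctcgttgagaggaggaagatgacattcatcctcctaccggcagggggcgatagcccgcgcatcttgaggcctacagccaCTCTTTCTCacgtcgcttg
Rps29, GENCODE start, chr12:70260149-70260273, minus strand: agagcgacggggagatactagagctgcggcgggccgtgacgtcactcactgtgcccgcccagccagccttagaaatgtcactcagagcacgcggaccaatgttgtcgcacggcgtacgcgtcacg
Rps4y2, GENCODE start, chr6:148303078-148303202, plus strand: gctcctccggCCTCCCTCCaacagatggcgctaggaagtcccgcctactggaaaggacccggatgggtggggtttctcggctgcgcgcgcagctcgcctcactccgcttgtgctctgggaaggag
Rps10, GENCODE start, chr17:27773550-27773674, minus strand: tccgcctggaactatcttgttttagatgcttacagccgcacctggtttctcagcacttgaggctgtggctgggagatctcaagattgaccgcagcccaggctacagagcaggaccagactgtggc
Rps10, RefSeq start, chr17:27772165-27772289, minus strand: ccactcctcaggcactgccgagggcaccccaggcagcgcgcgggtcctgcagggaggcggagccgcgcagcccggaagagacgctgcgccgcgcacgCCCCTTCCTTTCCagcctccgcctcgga
Rpl13a, GENCODE start, chr7:52391763-52391887, minus strand: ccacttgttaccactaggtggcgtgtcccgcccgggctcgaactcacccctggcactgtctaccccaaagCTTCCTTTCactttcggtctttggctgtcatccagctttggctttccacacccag
Rpl13a, RefSeq start, chr7:52384091-52384215, minus strand: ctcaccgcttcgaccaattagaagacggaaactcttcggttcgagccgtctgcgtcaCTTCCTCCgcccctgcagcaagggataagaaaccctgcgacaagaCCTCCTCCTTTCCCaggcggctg
Rpl15, GENCODE start, chr14:19103881-19104005, minus strand: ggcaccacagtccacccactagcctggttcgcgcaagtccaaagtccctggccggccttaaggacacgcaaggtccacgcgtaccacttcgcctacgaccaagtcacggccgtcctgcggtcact
Rpl15, RefSeq start, chr14:19103476-19103600, minus strand: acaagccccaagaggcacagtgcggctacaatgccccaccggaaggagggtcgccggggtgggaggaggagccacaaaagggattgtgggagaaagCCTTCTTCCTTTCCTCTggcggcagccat
Rps2, RefSeq start, chr17:24856908-24857032, plus strand: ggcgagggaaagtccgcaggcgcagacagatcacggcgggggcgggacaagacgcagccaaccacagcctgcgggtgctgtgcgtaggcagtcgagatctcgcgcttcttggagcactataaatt
In Rps10 and Rpl15 runs of 13 and 17 pyrimidines span the RefSeq start, and no run of 8 lies in the window at the GENCODE start. Rpl13a differs, with a run of 14 that begins 2 bases downstream of the RefSeq start and a run of 9 in the GENCODE window. Rps2 has no run of 8 in the window at its RefSeq start.

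A promoter peak, counted where a peak overlapped the 1000 bp on either side of the gene start, was present at 75 of the 81 genes (92.6%, 95% Wilson interval 84.8 to 96.6%). Over all protein-coding genes the same rule found a peak at 48.1%. Among core members 69 of 72 had a peak (95.8%), with 41 of 42 large-subunit genes and 28 of 30 small-subunit genes. With only peaks of fold enrichment at least 4 and q at most 0.001, 72 members remained (88.9%) against 36.6% of all genes. The gene start itself lay inside a peak at 63 members (77.8%) against 38.4% of all genes. When the start of any protein-coding transcript of a gene was allowed, 78 members (96.3%) had a peak against 50.1% of all genes, and these 78 include all 72 core genes. The intervals cover counting error only.

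**Figure D1:**
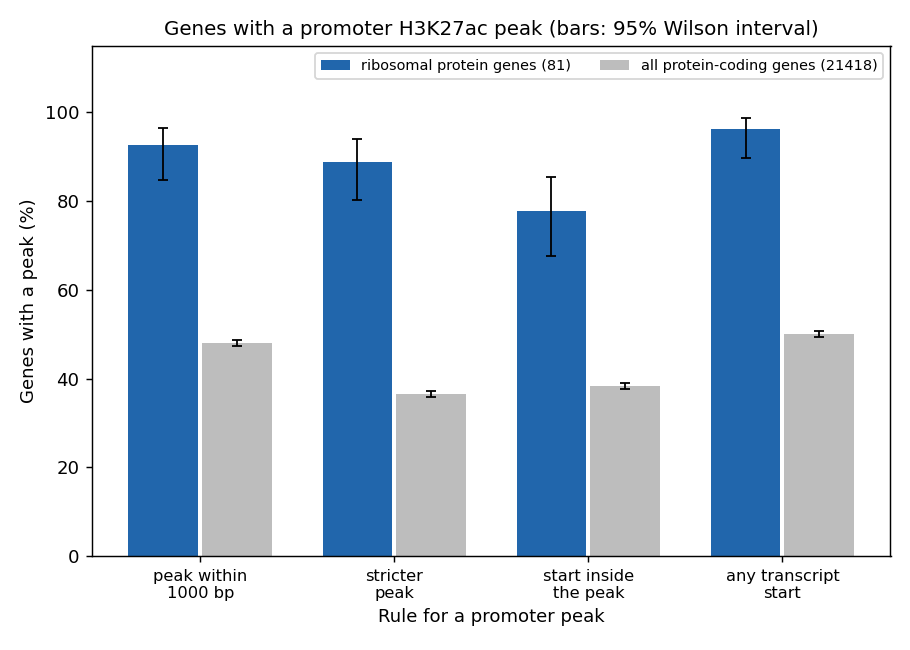
Share of genes with a promoter H3K27ac peak (y axis, percent) under 4 rules for a promoter peak (x axis), for 81 ribosomal protein genes (blue) and all 21418 protein-coding genes (grey); error bars are 95% Wilson intervals. The share of ribosomal protein genes runs from 77.8 to 96.3% and that of all genes from 36.6 to 50.1%.

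The 6 members with no peak near the gene start were 3 core genes, Rpl13a, Rps2 and Rps10, and 3 paralogs, Rpl3l, Rpl10l and Rpl39l. For each of the 3 core genes the nearest peak lay inside the gene, over another annotated start. The Rps10 peak of 887 bp (pileup 19.17, 4.49-fold) began 1385 bp downstream of the GENCODE start, at the RefSeq start. The Rps2 peak of 1515 bp (pileup 20.16, 5.32-fold) held a transcript start 1947 bp downstream. The Rpl13a peak of 2220 bp (pileup 18.71, 5.10-fold) held a transcript start 7669 bp downstream of the gene start, 3 bases from the RefSeq start. These peaks resemble those of other core members in height. The CpG ratio of the promoter at the GENCODE start (observed over expected CpG, 250 bases before to 50 after) was 0.148 in Rps2, 0.215 in Rps10 and 0.57 in Rpl13a, against a median of 0.849 over members.

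The 3 paralogs without a peak have their closest peak outside the gene. That distance was 3459 bp for Rpl3l, a form of Rpl3 made in skeletal and heart muscle, 143312 bp for Rpl39l and 936424 bp for Rpl10l, both known from testis. The parent of Rpl3l, Rpl3 on chromosome 15, had a peak with a pileup of 14.25 and a fold enrichment of 4.84, and the parents of Rpl10l and Rpl39l lie on chromosome X, outside the rule. The 6 paralogs or namesakes with a peak had a median length of 1271 bp and a median pileup of 14.7, against 1459 bp and 19.6 in 69 core genes. Rps27l, a p53-induced relative of Rps27, had a pileup of 17.71, above the 15.18 of Rps27. In fold enrichment their order was the opposite, with 4.95 in Rps27l and 6.93 in Rps27. Rpl36al had a pileup of 17.38, above the 10.86 of its X-linked parent Rpl36a. Pileups were lower on X in general, with a median of 11.6 in other X-linked genes against 16.6 on chromosomes 1 to 19. Rpl22l1 had 15.42 against 19.97 in its parent Rpl22. Rpl7l1 had 13.94 against 19.72 in Rpl7, and Rps19bp1 had 12.27. The lowest pileup of all members, 9.42 over 380 bp, was that of Rps4y2. All 6 pileups were below the core median.

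Ribosomal protein genes have given rise to many retrotransposed pseudogenes. Of 78 annotated pseudogenes on chromosomes 1 to 19 that carry a ribosomal protein symbol with the ending -ps, 0 had a peak within 1000 bp of their start. Of the 3977 other annotated pseudogenes 2.36% had one, a share so low that the count of 0 does not set these 78 apart, and the uniqueness of pseudogene sequences was not checked. Reads that align to more than 1 place were left out of the data, so the uniqueness of the promoter windows was checked. In 71 of 81 members (87.7%) every 150-base word of the promoter window occurred once in the genome, against 88.3% of all protein-coding genes. The share was higher in genes with a peak and in related groups, with 96.3% of other genes with a peak, 97.4% of mitochondrial ribosomal protein genes and all 19 other translation genes. The lowest share of single words was 91.6%, in Rps29. A median of 100% was single both in members and in other genes.

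Member peaks were longer and higher than the promoter peaks of other genes and varied less. The median length was 1428 bp (quartiles 1112 and 1685), against 1136 bp (757 and 1556) over 10231 other genes with a promoter peak. The median pileup, the mean number of ChIP fragments over the peak after scaling to the control library, was 19.5 (17.1 to 20.9) against 16.6 (13.9 to 19.5). The median fold enrichment over the control was 5.62 (4.75 to 6.50) against 4.76 (4.05 to 5.62). Of the 75 members with a peak, 59 were above the other genes' median in pileup, 56 in fold enrichment and 54 in length. In pileup and in fold enrichment 37 of 75 were above the other genes' upper quartile, and 27 were in length. The standard deviation of log2 length was 0.45 among members and 0.78 among other genes, and that of log2 pileup was 0.26 and 0.37. That of log2 fold enrichment was 0.306 and 0.345. The small spread of pileup was shared with mitochondrial ribosomal protein genes (0.26) and other translation genes (0.281). Their spread of log2 length was wider, at 0.697 and 0.79.

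Long domains were rare among members. Lengths ran from 380 to 2966 bp in members and from 313 to 32860 bp in other genes. In core members 55 of 69 peaks were between 1000 and 2000 bp long, 11 were shorter and 3 longer. In other genes 10.9% of promoter peaks were longer than 2000 bp. Peaks under 1000 bp made up 15.9% of the core members' peaks and 41.1% of the other genes'. The longest were Rpl7 (2966 bp), Rpsa (2206 bp), Rpl31 (2136 bp), Rps15 (1947 bp) and Rps21 (1924 bp). Rpsa encodes a small-subunit protein also known as the laminin receptor. The Rpl7 peak also covered the start of Rdh10, which encodes a retinol dehydrogenase, on the opposite strand 1112 bp away. The shortest peaks of core members were those of Rps27a (801 bp), Rps29 (808 bp), Rplp0 (831 bp) and Rpl36 (834 bp). Rps27a is made as a fusion with ubiquitin, and Rplp0 forms the base of the ribosomal stalk. Rpl36 is a gene of 849 bp, and its peak covered 94.9% of it.

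**Figure D2:**
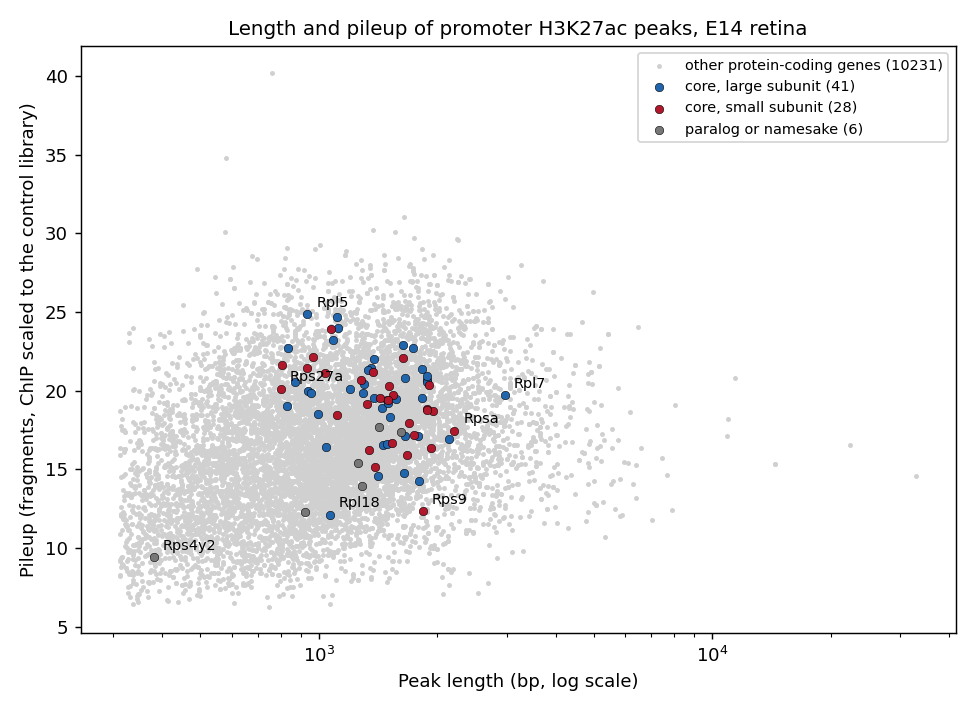
Peak length (x axis, bp, log scale) against pileup (y axis, scaled fragments) for the promoter peaks of 41 large-subunit core genes (blue), 28 small-subunit core genes (red), 6 paralogs or namesakes (dark grey) and 10231 other protein-coding genes (light grey). Core members sit between 801 and 2966 bp and between 12.1 and 24.9 in pileup.

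Among the highest pileups were 24.87 in Rpl5, 24.72 in Rpl32, 24.00 in Rpl11 and 23.24 in Rpl8. Rpl5 and Rpl11 enter the ribosome together with the 5S rRNA and, when ribosome assembly fails, bind the p53 regulator Mdm2. Rpl8 encodes a large-subunit protein near the peptidyl transferase centre. These 4 peaks were shorter than the members' median, with lengths of 935 bp in Rpl5, 1113 bp in Rpl32, 1120 bp in Rpl11 and 1085 bp in Rpl8. The lowest pileups of core members were 12.13 in Rpl18 and 12.34 in Rps9. The RefSeq start of Rpl18 lies 2614 bp downstream of its GENCODE start, past the end of this peak. A different peak, whose values are not given here, lay within 1000 bp of that RefSeq start. In all, 12 of 69 core members were below the other genes' median pileup. Removal of repeated tags limits the scaled pileup to 50.8, and the highest member reached 49.0% of that.

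Across the 75 members, length and pileup had a Spearman's rho of -0.203, and across the 10231 other genes 0.311. These are descriptions across genes of a single pooled library, which share its depth and are not independent replicates. Length among members went with the reach upstream of the start (rho 0.744) more than with the reach downstream (rho 0.493), and each reach is a component of the length.

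The highest fold enrichment was 10.02 in Rps29, followed by 7.98 in Rpl22 and 7.97 in Rps20. Rps29 encodes a small zinc-binding protein of the small subunit. The lowest were 3.63 in Rps25, 3.64 in Rps27a and 3.87 in Rps28, the 3 members with a peak that missed the stricter threshold. Their pileups overlapped, with 21.65, 19.97 and 16.26 in the high genes and 16.69, 20.14 and 17.97 in the low ones. The local control background, taken as the pileup divided by the fold enrichment, was 2.16, 2.50 and 2.04 in the high genes and 4.60, 5.53 and 4.64 in the low ones. Over 75 members fold enrichment had a rho of -0.736 with this background and 0.145 with pileup, although the background is computed from the fold enrichment itself. The other genes gave -0.447 and 0.45. The median background of members was 3.51 against 3.38 in other genes. In Rps29 the background was at percentile 4.12 of other promoter peaks, and 83.3% of the 150-base words upstream of its start were single in the genome. The part of read uniqueness in its fold enrichment was not tested.

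**Figure D3:**
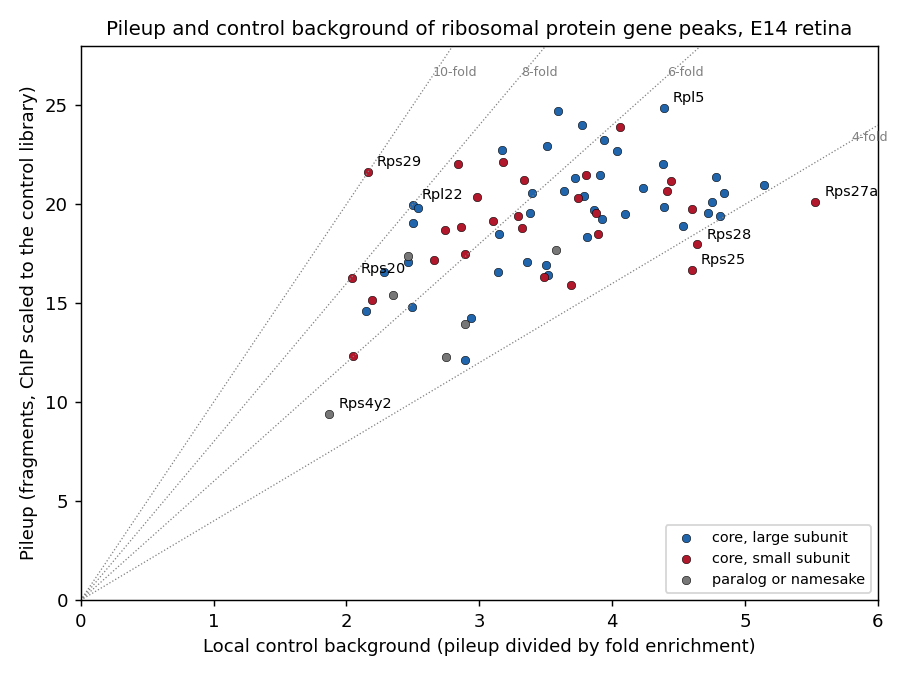
Local control background (x axis) against pileup (y axis), both in scaled fragments, for 75 ribosomal protein genes; dotted lines mark equal fold enrichment. Rps29 lies on the 10-fold line at a background of 2.16, and Rps25, Rps27a and Rps28 lie below the 4-fold line at backgrounds of 4.60 to 5.53.

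Member peaks lay downstream of the gene start. The midpoint was downstream in 66 of 75 members (88.0%) and in 75.6% of other genes with a peak, and its median offset was 292 bp in members and 192 bp in other genes. Peaks of members reached a median of 473 bp upstream and 973 bp downstream, against 409 and 708 bp in other genes. Measured from GENCODE starts, the added length was thus mainly on the transcribed side. Among genes with a RefSeq start, that start lay downstream of the GENCODE start in 49.2% of members and 35.4% of other genes. The reach was not measured from RefSeq starts. The midpoints farthest downstream were at 764 bp in Rpl35, 731.5 bp in Rps3a and 720.5 bp in Rpl38. Rpl38 is known for its part in the translation of Hox mRNAs. The midpoints farthest upstream were at -328.5 bp in Rpl7, -268.5 bp in Rps25 and -161.5 bp in Rpl18. That of Rpl18 belongs to the peak at its GENCODE start, which lies 2614 bp upstream of its RefSeq start. With RefSeq starts in place of GENCODE starts, which could be placed in mm9 for 59 members, the median offset was 218 bp in members and 162 bp in other genes.

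**Figure D4:**
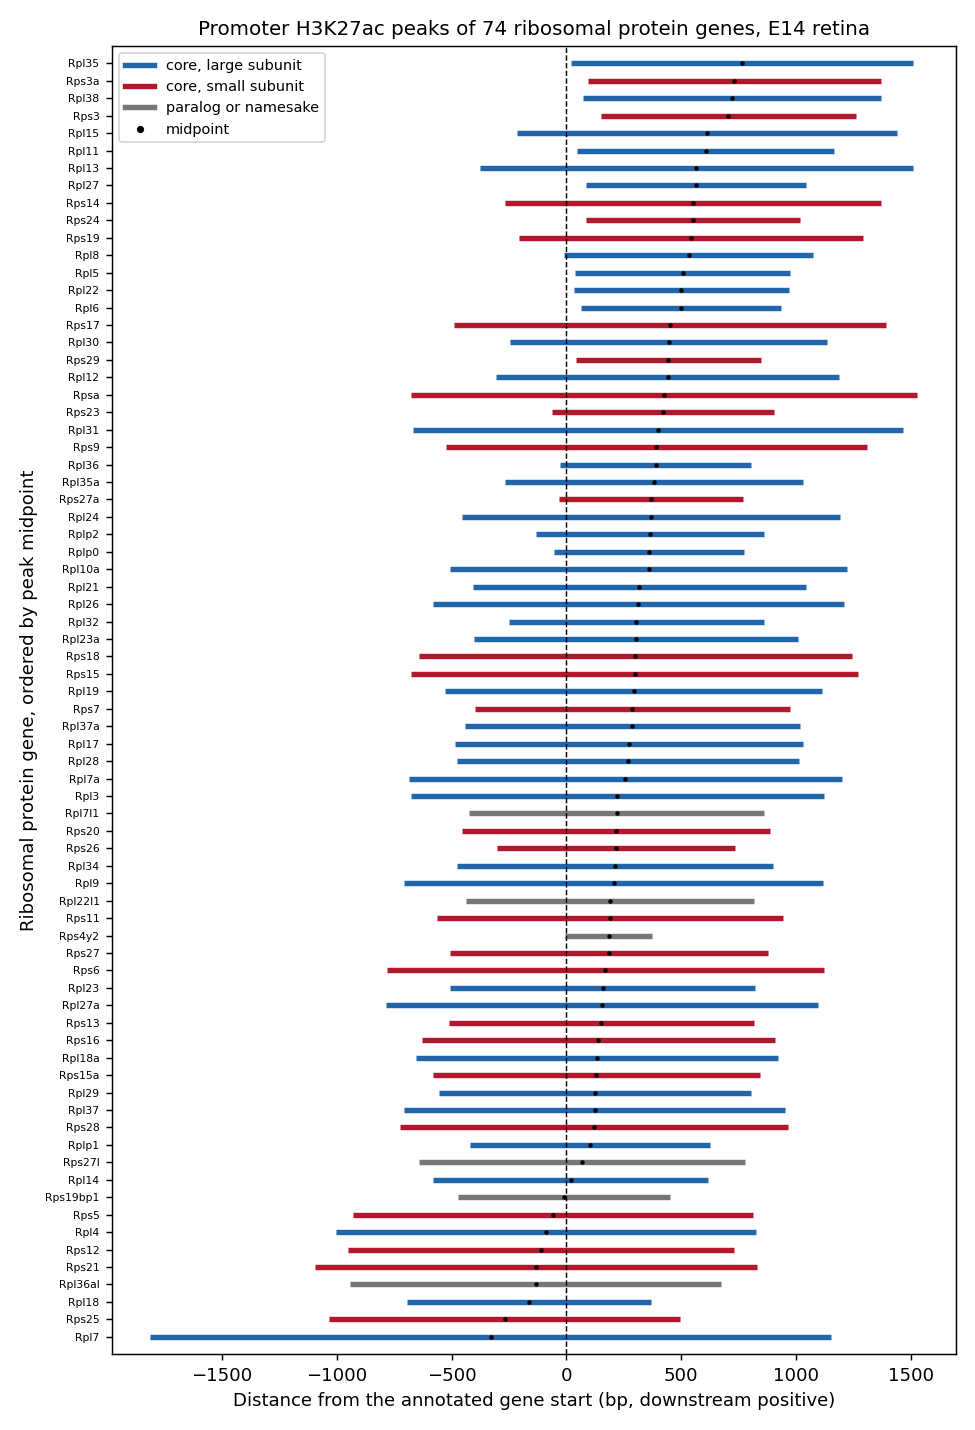
Extent of the promoter H3K27ac peak of each of 74 of the 75 ribosomal protein genes with a peak (one line per gene, ordered by midpoint) against the distance from the annotated gene start (x axis, bp); black points are midpoints. Most peaks span the start and reach farther downstream than upstream, and the 11 drawn peaks that do not hold the start all lie downstream of it.

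The start lay outside the peak in 12 members with a peak, among them Rpl5, Rpl6, Rpl11, Rpl22, Rpl27, Rpl35, Rpl38, Rps3, Rps3a, Rps24 and Rps29, a set singled out after its values were seen. In all 12 the peak began downstream of the start, at a distance of 20 bp (Rpl35) to 150 bp (Rps3) with a median of 67 bp. Among other genes 20.2% of promoter peaks missed the start, with 89.9% of these downstream. The 12 peaks had a median pileup of 20.6 and a median length of 1014 bp, against 19.2 and 1497 bp in the members whose peak held the start. A RefSeq start was found for 9 of the 12, and of these that of Rpl35 lay inside the peak, 493 bp downstream of the GENCODE start.

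Most member genes are short, with a median length of 3368 bp against 15630 bp in other protein-coding genes. A member's peak covered a median of 34.0% of its gene, more than 50% in 9 genes, and never passed the gene's end. In addition to Rpl36, the peak covered 89.4% of Rps27, 77.7% of Rps21 and 75.5% of Rps15. Introns of ribosomal protein genes often carry small nucleolar RNAs (snoRNAs), which guide the modification of ribosomal RNA. In the annotation 28 members (34.6%) held 56 snoRNA genes, against 1.05% of other protein-coding genes. Rpl4 held 5, and Rpl7a and Rpl13a held 4 each. The 26 host genes with a peak had a median length of 1471 bp, a median pileup of 19.5 and a median fold enrichment of 5.26. The 49 members with a peak and no snoRNA gene, of 53 without one, had 1421 bp, 19.4 and 5.65.

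In 13 of 75 members the peak also overlapped the window of another protein-coding gene, always on the opposite strand (17.3%). Among other genes with a peak, 22.3% had a peak that met the window of a gene on the opposite strand. In 8 of these the partner started upstream within 1000 bp, so that both genes point away from each other (10.7% of members with a peak, against 13.9% of other genes with a peak). These were Rpl4 with Zwilch, Rpl7a with Med22, Rpl9 with Lias, Rpl35a with Iqcg, Rpl36al with Mgat2, Rps25 with Trappc4, Rps27 with Rab13 and Rps28 with Ndufa7. Their peaks reached a median of 717.5 bp upstream, against 443 bp in the 67 members with a peak and no such partner. The median midpoint offset was 151 bp against 302 bp, and the median pileup 18.8 against 19.5. Rps25, Rps27a and Rps28, the 3 members of lowest fold enrichment, were all among the 13.

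Core genes of the large and the small subunit gave similar medians. The stricter threshold was passed by 41 of 42 large-subunit genes (97.6%) and 25 of 30 small-subunit genes (83.3%). The median length was 1448 bp in 41 large-subunit genes and 1502 bp in 28 small-subunit genes. The median pileup was 19.8 and 19.3, the median fold enrichment 5.38 and 5.89, and the median offset 312 and 292 bp. The quartiles of each measure overlapped. The stalk proteins Rplp0, Rplp1 and Rplp2 had pileups of 19.04, 16.43 and 18.52. Rps6, the target of the S6 kinases, had a peak of 1903 bp with a pileup of 20.39 and a fold enrichment of 6.85. Rps19, the gene mutated most often in Diamond-Blackfan anaemia, had 1497 bp, 19.39 and 5.88. Rps14, located on chromosome 18, had 1638 bp, 22.06 and 7.78.

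Genes with related roles were set beside them. Of 77 mitochondrial ribosomal protein genes 74 had a peak (96.1%), and 71.4% passed the stricter threshold. This list holds 1 gene with a pseudogene symbol, Mrps36-ps1, and without it 74 of 76 had a peak (97.4%). Their median length of 945.5 bp, pileup of 16.4 and fold enrichment of 4.70 were below those of the cytosolic genes and their pileup was near that of other genes (16.6). Of 30 ribosome assembly genes 28 had a peak, with medians of 1184 bp, 16.6 and 4.50. All 19 genes of a list of other translation factors and TOP mRNAs had a peak, and their medians of 1562 bp, 20.9 and 5.54 were close to those of the ribosomal protein genes. In that list, Fau had a pileup of 18.57 and a fold enrichment of 7.08. Gnb2l1, whose product RACK1 is bound to the small subunit, had 14.92 and 5.75. The elongation factor gene Eef1a1 had a peak of 327 bp with a pileup of 13.39. Quartiles of cytosolic and mitochondrial genes overlapped in length, pileup, fold enrichment and offset. The reach downstream of the start had quartiles of 828.5 and 1180 bp in the cytosolic genes and 512.8 and 719.2 bp in the mitochondrial genes, which do not overlap. In the other translation genes the quartiles of this reach were 830.5 and 1144 bp, close to those of the cytosolic genes.

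**Figure D5:**
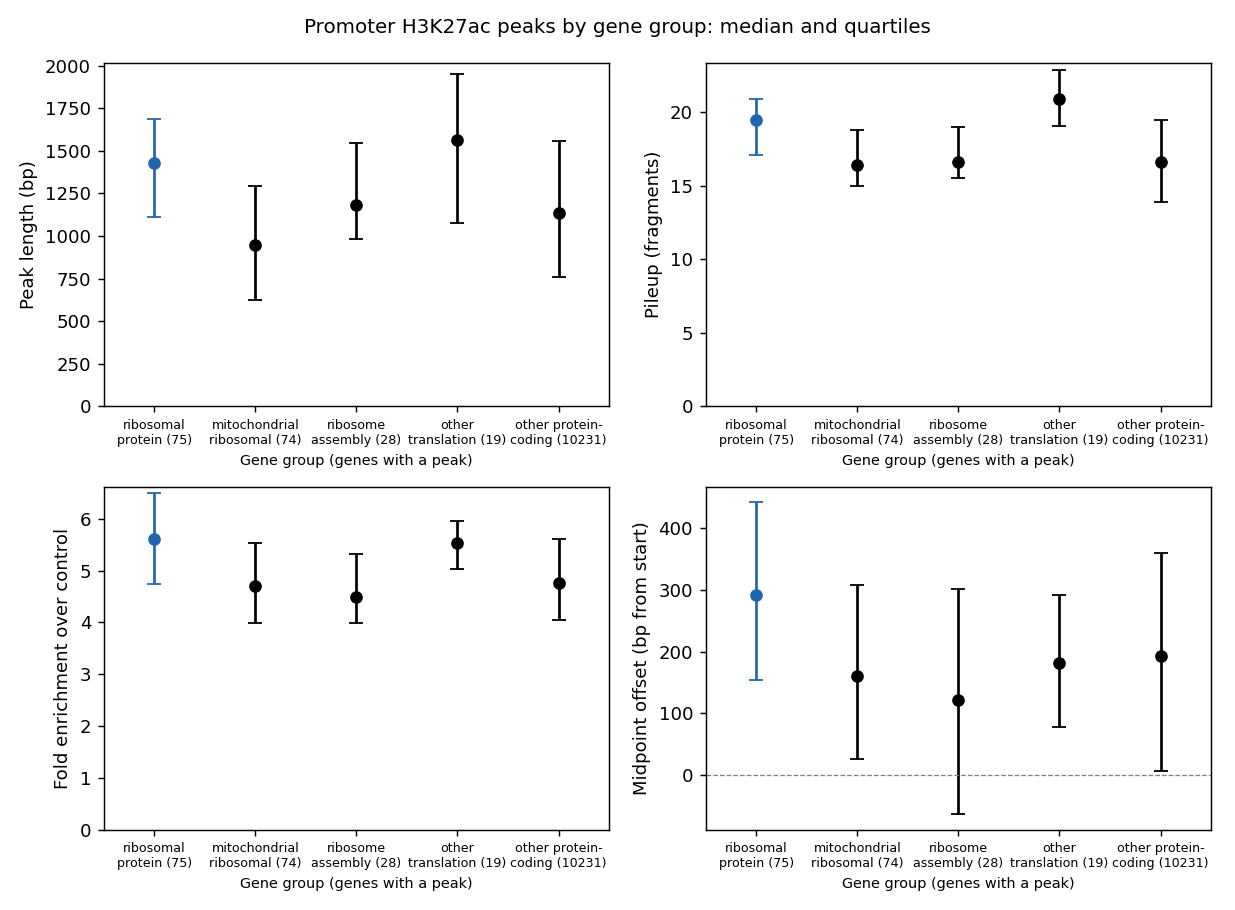
Median (points) and quartiles (bars) of peak length, pileup, fold enrichment over control and midpoint offset (y axes) for the promoter peaks of 5 gene groups (x axis, number of genes with a peak in brackets). Cytosolic ribosomal protein genes and other translation genes have the higher medians of length, pileup and fold enrichment, and cytosolic ribosomal protein genes have the largest median offset, 292 bp.

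The promoters of members, read from 250 bases before to 50 bases after the gene start in mm9, were rich in CpG. The median CpG ratio was 0.849, against 0.798 in other genes with a peak and 0.544 in all protein-coding genes. The GC content was 55.7% against 62.0% in other genes with a peak and 55.3% in all protein-coding genes. Motif letters were searched on both strands. The ETS word CCGGAAG was found in 24 of 81 members (29.6%), in 19.2% of other genes with a peak and in 10.9% of all genes. It was also found in 35.1% of mitochondrial ribosomal protein genes, 43.3% of ribosome assembly genes and 15.8% of the other translation genes. It occurs in the printed windows of Rps10 and Rpl15 at their RefSeq starts. The 23 members with the word and a peak had a median pileup of 20.3, and the 52 without it 19.4. The YY1 word AAGATGG was found in 11.1% of members and 6.75% of all genes, and in 18.2% of mitochondrial ribosomal protein genes and 26.3% of the other translation genes. The GC box GGGCGG was found in 46.9% of members, in 67.7% of other genes with a peak and in 43.7% of all genes. The word CCAAT was found in 32.1% of members and 37.6% of all genes. The word TATAAA was found in 11.1% of members, in 5.96% of other genes with a peak and in 13.5% of all genes. Each word was counted by itself, whether or not it overlapped another, and a match describes the letters only.

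A run of at least 8 C or T within 10 bases of the gene start was found in 28.4% of members and 13.8% of all genes. Within a wider window from 10 bases before to 100 bases after the start, chosen after the data were seen, 60 of 81 members (74.1%) had such a run, against 40.6% of all genes and 35.0% of other genes with a peak. The share was 76.4% in core genes, 35.1% in mitochondrial ribosomal protein genes and 78.9% in the other translation genes. In Rpl11 the longest run in this window was 17 bases, and a run of 23 lies just upstream of its start.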

How the data were processed

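H3K27ac ChIP-Seq of E14 retina was available as a single list of 13463 regions. Per the methods, the authors aligned reads to mm9 with Bowtie2 and kept uniquely mappable reads. Per the file headers, MACS 2.1.0.20140616 called broad regions (broad cutoff 0.1, q cutoff 0.05) on 1 ChIP alignment, taken as both replicates pooled, against the isotype control, with at most 1 tag per position. Redundant tags made up 29% of the ChIP and 67% of the control tags. The deposited pileup is a signal, the mean fragment coverage over the region with the ChIP scaled down 12.3-fold to the control. The deposited fold enrichment is the ratio of that pileup to the local control background. The deposited −log10 p-value and q-value are averages over the region, and the deposited length is in bp. Neighbouring regions were at least 1253 bp apart.

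Peaks were assigned to GENCODE vM1 gene starts in Python 3.11.15 with numpy 2.4.6, pandas 2.3.3 and scipy 1.17.1, and the overlap code was tested on 20 simulated sets. Where several peaks met a window, the one nearest the start was used, and no member had more than 1. Shares carry 95% Wilson intervals. Of 14071 genes whose RefSeq promoter (table of a later build) was found in mm9 by an exact match, 59 are members. Genes named are those with no peak, the extremes of each measure and all paralogs; others are named for their role. The members and lists were chosen with earlier results of these data known. Some items are not reported here. Alternatives are given in the closing section.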

Additional observations from a re-analysis of the deposited data

How the results depend on the processing

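The share of ribosomal protein genes with a peak, 92.6%, stayed within its interval under 8 alternatives and was 77.8% when the peak had to hold the gene start. The share of all protein-coding genes, 48.1%, was 36.6% with the stricter peaks, 47.4% with a window of 500 bp and 49.3% with 2500 bp. It was 38.4% with the start inside the peak, 46.3% with the midpoint inside the window, 50.1% with any transcript start and 52.3% with RefSeq starts. The members' medians of length, pileup, fold enrichment and offset stayed within their rank-based 95% intervals under every alternative run, and the member median was above that of other genes in 23 of 23 settings. Some of these settings could hardly change the order. Counting every peak in the window left the members as they were and gave 10232 peaks instead of 10231 in other genes. The smallest differences were 194 bp in length, 2.1 in pileup and 0.51 in fold enrichment, with the stricter peaks, and 56 bp in offset, with RefSeq starts, an alternative added after the data were seen. Joining peaks less than 1000 bp apart changed nothing, since neighbouring peaks were at least 1253 bp apart. No paired analysis was possible because the values come from 1 pooled peak list. Without replicate values, neither a difference between genes nor a count has a replicate error, and a gene with no peak may lie below the caller's threshold.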

Other observations

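The 4 ribosomal protein genes of chromosome X, which the rule leaves out, all had a promoter peak. Their pileups were 11.03 in Rpl10, 10.86 in Rpl36a, 11.33 in Rpl39 and 11.68 in Rps4x, below those of all but 1 of the 75 members on chromosomes 1 to 19. Other X-linked genes with a peak, 308 of 928, had a median pileup of 11.6, against 16.6 for other genes of chromosomes 1 to 19. The local control background was also lower on X, with medians of 2.41 in the 4 genes and 2.36 in the other X-linked genes, against 3.51 and 3.38. The fold enrichment of the 4 genes, a ratio of both, was 3.98, 4.01, 5.36 and 5.73. Per the methods, retinas came from mice of either sex, and the part of sex in the lower pileup was not tested.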
